A study of Mus musculus with 6 samples.

Results

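The step from day 3 to day 6 of osteogenic culture was described gene by gene, with the day 6 array set against the day 3 array. A gene entered when its probe had a detection p under 0.01 on at least 1 of the 2 arrays, which gives the fraction of negative controls brighter than the probe. This gave 8427 of the 9751 genes on the array table that carry 1 gene symbol. Of these, 7724 were detected on both days, 371 on day 3 only and 332 on day 6 only. Differences are given in log2 units as day 6 minus day 3, after background correction and quantile normalization of all 6 arrays together, so a value of 1 is a 2-fold difference. At the edge of the threshold, Zgpat entered with detection p of 0.00998 and 0.01248 on day 3 and day 6 and levels of 6.93 and 6.74, and Zfp296 with 0.00998 and 0.02246 and levels of 6.93 and 6.31. Just outside it were 2610008E11Rik, with 0.01123 and 0.01061 and levels of 6.85 and 6.87, and 5730507C01Rik, with 0.01497 and 0.01061 and levels of 6.66 and 6.85.

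The cells, from C57BL/6 mice, were taken out of dorsal and inguinal fat and grown as mesenchymal stem cells, which can form bone, fat and cartilage cells in culture. Both days had the same osteogenic medium: ascorbic acid at 50 µM for collagen processing, β-glycerophosphate at 10 mM as a phosphate source and the synthetic glucocorticoid dexamethasone at 0.1 µM, in a base that also held serum and DMSO. Days 0, 1, 3, 6, 10 and 14 had 1 array each without a replicate. Cells kept off the medium were not sampled later than day 0, so an effect of the medium and one of time in culture cannot be told apart. Age, sex and any pooling of animals were not given in the labels used here. With 1 array a side there is no test, and every value below describes these 2 arrays.

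A cell that leaves the division cycle first stops passing from G1 into S phase, and the genes for DNA replication and then for mitosis are switched off. In resting cells the E2F sites of replication genes are held by repressive E2F and DREAM complexes. The promoters of mitotic genes are held by DREAM at a motif named CHR, and CCAAT boxes bound by NF-Y serve their activity in dividing cells. Cultured bone-forming and fat-forming precursors usually slow their division before they take on the genes of the mature cell, and glucocorticoids act on both fates.

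Arrays of both days were alike in depth: 13216 probes were detected on day 3 and 13140 on day 6 of 46613, within the range of 12891 to 13980 over the 6 arrays, and the median raw signals were 129.0 and 126.8. The lowest level of a detected probe was 6.88 on day 3 and 6.91 on day 6. The highest raw signals were 66712 and 65344, and 140 genes reached 50% of them or more on either array, where differences in size are not resolved. Of 18 surface markers of stromal and stem cells on the array table, 16 were measured, 7 below 0 and 9 above (median 0.04), and Dpp4 and Mcam were not detected on either day. Ngfr was lower, at 10.17 on day 3 and not detected on day 6 (6.30), and the other 15 were within 2-fold. Thy1 (14.50 and 14.28), Pdgfra (13.77 and 14.43) and Itgb1 (14.16 and 14.78) were high on both days. Markers of other cells were few on the table. Of the leukocyte markers, Cd14 was at 8.38 and 8.72 and Lyz2, a lysozyme of macrophages, was not detected on day 3 (6.67) and was at 8.67 on day 6. Among 4 endothelial markers Emcn was not detected on either day, Kdr (7.77 and 7.77) and Tek (9.36 and 9.49) were level, and Egfl7 was at 10.25 and 8.13. Krt7, a keratin also found in mesothelium, was at 7.91 and 9.45. Msln, the other mesothelial marker measured, was detected on day 6 only and differed by 1.0. Krt19, the only epithelial marker measured, went the other way, at 7.26 on day 3 and not detected on day 6 (6.0). The skeletal muscle markers Acta1 and Tnnc1 were detected on both days and differed by 0.66 and -0.58. The 3 pericyte markers measured differed by 0.13 to 0.73. The part of these cells in the results was not tested. Dpp4, Mcam, Thy1, Pdgfra, Itgb1, Cd14, Emcn, Kdr, Tek and Msln are outside the naming rule and were chosen after their values were seen.

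Most genes stood close to the diagonal. The median difference was -0.022, the quartiles were -0.367 and 0.348, and 70.3% of genes were within 1.5-fold. At least 2-fold higher on day 6 were 564 genes, 6.69% of those measured, and at least 2-fold lower were 504, or 5.98%. Of the higher genes 411 were detected on both days and 153 on 1. Of the lower genes 339 were detected on both days and 165 on 1. Within 2-fold were 7359 genes. At 4-fold, 124 genes were higher and 115 lower. For 235 of the genes 2-fold apart another probe was also detected, and in 222 of them every other probe had the same direction. For scale, the step from day 0 to day 1 had 323 higher and 297 lower genes, that from day 1 to day 3 had 722 and 467, that from day 6 to day 10 had 107 and 354, and that from day 10 to day 14 had 80 and 21. Neighbouring steps share an array, so their gene sets were not compared.

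**Figure D1:**
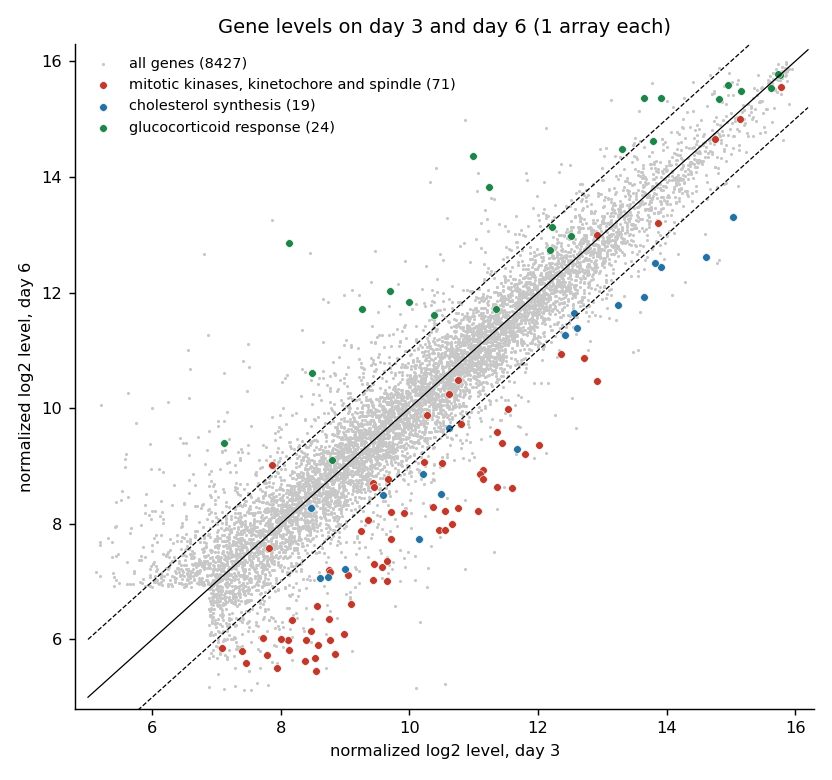
Normalized log2 level of 8427 genes on day 3 (horizontal axis) and day 6 (vertical axis), 1 point a gene, with the line of equality and dashed lines at 2-fold. Most genes of the mitotic kinase, kinetochore and spindle lists and of cholesterol synthesis lie below the lower dashed line, and 12 of 24 glucocorticoid response genes lie above the upper one.

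The arrays of day 1 and day 10 are not the ones compared in the step, though they entered the joint normalization and the choice of probe. Between them, 424 of the 504 lower genes (84.1%) were also at least 2-fold lower on day 10 than on day 1 and 7 were 2-fold higher, with a median difference of -2.27. Over all 8427 genes, 1357 (16.1%) were 2-fold lower between those days. Of the 564 higher genes, 452 (80.1%) were at least 2-fold higher on day 10 than on day 1 and 16 were 2-fold lower, with a median of 2.18. The background for that direction was 1455 genes, or 17.3%. Of the lower genes 483 of 504 were below 0 between day 1 and day 10, beside 4199 of all 8427. Of the higher genes 520 of 564 were above 0, beside 4226 of all 8427.

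Genes of cell division were the largest listed group among the lower genes. On 12 lists of proliferation genes, 242 of the 260 genes on the table were measured, of which 132 (54.5%) were at least 2-fold lower on day 6, 2 were 2-fold higher and 108 lay between, with a median difference of -1.20 against -0.022 over all genes. Of the 195 detected on both days, 87 were 2-fold lower. These 132 genes were 26.2% of all lower genes, and 372 lower genes were on none of the 12 lists. The 2 higher ones, named after their values were seen, were Numa1, a spindle pole protein that also has a role in the interphase nucleus, at 7.87 and 9.02, and H1f2, a linker histone, at 14.27 and 15.36. In bulk RNA such as this, fewer cells of a type and less RNA per cell cannot be told apart. From day 0 to day 1 the median difference was above 0 on 11 of the 12 lists, up to 1.04, and was -0.05 on the histone list. From day 1 to day 3 it was below 0 on 11 of the 12 lists, from -1.21 to -0.14, and was 0.02 on the mitotic exit list. Over the 6 arrays in order of days, the median of the spindle list stood at 10.25, 11.19, 10.48, 7.95, 5.89 and 6.28.

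The mitotic genes stood lowest. Of 18 mitotic kinases and cyclins 15 were 2-fold lower and none higher (median -2.06), of 25 kinetochore, centromere and passenger complex genes 21 were lower and none higher (median -2.04), and of 28 spindle, motor and cytokinesis genes 22 were lower and 1 higher (median -2.10). Some of them were not detected on day 6, and over members detected on both days the medians were -2.11, -1.76 and -1.57. The promoters of 6 proliferation genes among the lowest are shown here to let the motifs by which such genes are known to be grouped be read in place. They are the lowest genes detected on both days whose window held CHR or E2F letters: Tk1 and Birc5, which were lower still, had neither in their windows and were passed over, and Spc24 was not in the promoter table. Each runs 5′ to 3′ along the gene from 250 bases before to 50 after the RefSeq start site in GRCm38.p6, with capitals at CHR, CCAAT and E2F letters on either strand.
Uhrf1, chr17:56303087-56303386, plus strand: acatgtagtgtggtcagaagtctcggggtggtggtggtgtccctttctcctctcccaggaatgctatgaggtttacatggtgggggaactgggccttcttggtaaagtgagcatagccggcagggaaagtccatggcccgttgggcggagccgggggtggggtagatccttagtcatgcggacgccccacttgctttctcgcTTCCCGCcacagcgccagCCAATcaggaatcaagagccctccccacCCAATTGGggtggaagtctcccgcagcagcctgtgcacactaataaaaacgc
Cdc20, chr4:118437294-118437593, minus strand: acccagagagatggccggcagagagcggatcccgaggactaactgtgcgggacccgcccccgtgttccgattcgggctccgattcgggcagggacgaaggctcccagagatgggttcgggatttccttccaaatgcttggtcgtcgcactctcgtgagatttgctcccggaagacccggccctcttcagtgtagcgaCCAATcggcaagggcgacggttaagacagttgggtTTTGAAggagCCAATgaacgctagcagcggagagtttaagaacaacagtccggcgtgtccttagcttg
Aurka, chr2:172370521-172370820, minus strand: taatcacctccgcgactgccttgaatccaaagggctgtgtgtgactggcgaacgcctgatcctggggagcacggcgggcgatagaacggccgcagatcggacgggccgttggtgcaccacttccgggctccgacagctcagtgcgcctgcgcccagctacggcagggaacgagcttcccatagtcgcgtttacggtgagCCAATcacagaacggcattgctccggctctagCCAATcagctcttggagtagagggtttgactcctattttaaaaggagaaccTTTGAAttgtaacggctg
Cdca5, chr19:6084847-6085146, plus strand: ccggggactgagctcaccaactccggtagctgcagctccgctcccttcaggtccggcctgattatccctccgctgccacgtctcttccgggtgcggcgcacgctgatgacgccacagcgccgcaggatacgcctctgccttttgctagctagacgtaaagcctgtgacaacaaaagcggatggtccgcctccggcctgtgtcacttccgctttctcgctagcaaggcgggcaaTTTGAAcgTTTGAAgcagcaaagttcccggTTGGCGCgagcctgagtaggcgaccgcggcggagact
Spag5, chr11:78301341-78301640, plus strand: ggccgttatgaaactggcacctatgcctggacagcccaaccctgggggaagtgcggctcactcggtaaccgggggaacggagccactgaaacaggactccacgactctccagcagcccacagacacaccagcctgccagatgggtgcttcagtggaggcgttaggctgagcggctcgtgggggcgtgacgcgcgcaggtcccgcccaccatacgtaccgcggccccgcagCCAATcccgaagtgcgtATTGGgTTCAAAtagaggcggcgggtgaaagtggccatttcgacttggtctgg
Clspn, chr4:126556730-126557029, plus strand: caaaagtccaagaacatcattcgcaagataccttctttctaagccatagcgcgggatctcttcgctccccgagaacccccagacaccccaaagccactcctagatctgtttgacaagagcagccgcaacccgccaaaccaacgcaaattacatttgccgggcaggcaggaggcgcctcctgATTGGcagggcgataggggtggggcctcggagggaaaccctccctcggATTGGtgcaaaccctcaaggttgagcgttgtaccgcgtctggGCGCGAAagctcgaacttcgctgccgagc
In these windows Cdc20 held TTTGAA from base -18 to -13 and CCAAT at -53 to -49 and -8 to -4, counted from the start site. Aurka held CCAAT at -51 to -47 and -19 to -15 and TTTGAA after the start at 33 to 38. Cdca5 held TTTGAA at -17 to -12 and at -9 to -4, with TTGGCGC at 14 to 20 and no CCAAT. Spag5 held TTTGAA on the other strand at 4 to 9, with CCAAT at -20 to -16 and, on the other strand, at -3 to 2. Uhrf1 and Clspn, which serve replicating DNA, held E2F letters and CCAAT but no CHR letters: TTCCCGC at -48 to -42 in Uhrf1 and, on the other strand, TTCGCGC at 22 to 28 in Clspn. Since CHR or E2F letters were a condition for showing these windows, their presence here is no result.

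The letters were counted on both strands in all windows, 1 window a gene, with 3 kinds of motif. As CHR counted TTTGAA and also TTCGAA, of which the latter reads the same on both strands. The CCAAT box counted by its own letters. As E2F counted TTCCCGC, next to it TTGGCGC, further TTCGCGC and last TTGCCGC. The CCAAT box read on the other strand ends in the letters with which TTGGCGC starts, so these can overlap. Of the 66 lower genes on the mitosis lists (kinases, kinetochore, spindle, condensation and mitotic exit) 53 had a window, and CHR letters were in 38 of them (71.7%), CCAAT in 36 (67.9%), both in 29 (54.7%) and E2F letters in 11 (20.8%). Over 6897 measured genes with a window the shares were 13.8%, 39.2%, 5.92% and 17.9%, and over all 27025 genes of the promoter table they were 19.4%, 37.9%, 7.70% and 9.69%. Of the 46 lower genes on the S phase and repair lists (origins, fork, nucleotides, chromatin proteins and recombination) 40 had a window, with E2F letters in 21 (52.5%), CHR letters in 12 (30%) and CCAAT in 22 (55%). The 430 higher genes with a window, of 564, held CHR letters in 13%, CCAAT in 35.3% and E2F letters in 14%, close to all measured genes. Listed genes that were not 2-fold lower were not counted apart, so these shares cannot be assigned to the step rather than to the lists. A match describes letters and is no evidence of binding.

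Among the mitotic kinases Aurka, which builds the spindle poles, was at 11.36 on day 3 and 8.64 on day 6, a difference of -2.72. Its activator Tpx2 was at 11.14 and 8.78, Plk1, the kinase of mitotic entry, at 12.01 and 9.36, and Aurkb, the kinase of the chromosomal passenger complex, at 9.65 and 7.01. On the 6 arrays in order of days Plk1 was at 12.45, 13.23, 12.01, 9.36, 7.22 and 7.19, so its level was highest on day 1 and lowest on the last days. Bub1b, of the spindle checkpoint, was at 10.55 and 8.22. Birc5 (survivin), a partner of Aurkb, was at 11.59 and 8.62, and Cenpa, the histone variant that marks centromeres, was at 12.92 and 10.47. Spc24, which holds microtubules at the kinetochore, was at 11.07 and 8.22. Of the spindle proteins, Spag5 was at 10.56 and 7.90 and the motor Kif22 at 10.66 and 8.0. Dlgap5, Aspm and Cep55, which act at spindle poles and in the last cut between daughter cells, were at 8.85, 8.53 and 8.38 on day 3 and not detected on day 6 (5.75, 5.67 and 5.62).

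Proteins that shape and release chromosomes were split. Of 15 condensation and cohesion genes 5 were 2-fold lower and 10 lay between (median -0.20): Cdca5, which keeps sister chromatids together, at 10.34 and 7.62, the condensin subunits Ncaph at 9.66 and 7.15 and Smc2 at 10.97 and 9.23, Top2a, which untangles DNA, at 9.56 and 7.49, and Ncapg2, at 8.39 on day 3 and not detected on day 6. Of 14 genes of the anaphase-promoting complex and mitotic exit, 3 were lower: the activator Cdc20, at 11.47 and 8.64, and the ubiquitin-conjugating enzymes Ube2s, at 8.63 and 7.63, and Ube2c, at 7.28 and not detected on day 6. The other 11 lay within 2-fold. Top2a, Cdc20 and Ube2c are known for RNA that peaks in G2 and mitosis.

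**Figure D2:**
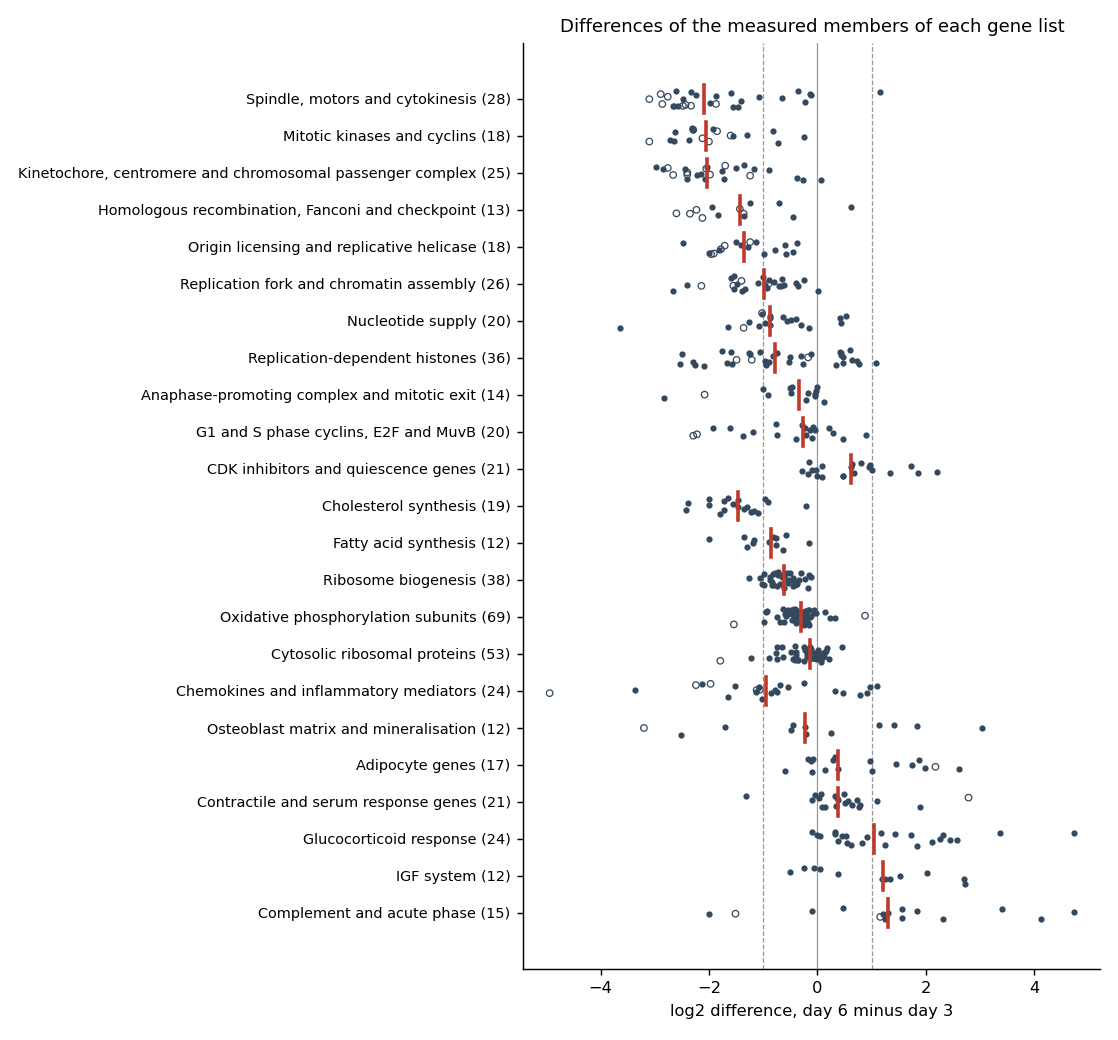
Difference in log2 level, day 6 minus day 3, of each measured member of 23 gene lists, with the number measured in brackets. Filled points were detected on both days, open points on 1, the red bar is the list median and dashed lines mark 2-fold. The spindle, mitotic kinase and kinetochore medians lie near -2, cholesterol synthesis at -1.47, and the glucocorticoid, IGF and complement medians above 1.

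Replication genes had medians nearer 0 than the mitotic kinase, kinetochore and spindle lists. Of 18 origin licensing and helicase genes 12 were 2-fold lower and 6 lay between (median -1.35, all 18 below 0). The helicase subunit Mcm5 was at 11.66 and 9.20 and Mcm2 at 9.55 and 7.55, and Dbf4, the activator of the origin-firing kinase, at 10.92 and 9.11. At the fork 13 of 26 genes were lower (median -0.98), with the checkpoint adaptor Clspn at 9.93 and 7.26, the histone chaperone Chaf1b at 9.75 and 7.34 and the ligase Lig1 at 10.70 and 9.10. Pcna, the sliding clamp, differed by only -0.67. On the list of recombination, Fanconi and checkpoint genes 10 of 13 were lower (median -1.43), among them the helicase Blm at 10.02 and 8.18.

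Nucleotide supply was uneven. Of 20 genes 7 were 2-fold lower and 13 lay between (median -0.88). Tk1, the salvage kinase that makes thymidylate for S phase, had the largest difference of the proliferation genes, -3.65, with 10.87 on day 3 and 7.22 on day 6. Tyms, which makes the same nucleotide anew, was at 11.11 and 9.47 and Cad, of pyrimidine synthesis, at 8.24 and 6.98. The ribonucleotide reductase subunits, chosen after their values were seen, did not share this: Rrm1 was at 12.05 and 12.47 and Rrm2 at 11.17 and 11.02. Of 9 chromatin proteins 4 were lower, led by Uhrf1, which brings the maintenance methyltransferase to new DNA, at 12.12 and 9.22, and the methyltransferase Dnmt1 itself, at 10.15 and 8.89. Replication-dependent histone genes had 14 lower, 1 higher and 21 between of 36 (median -0.78). The lower ones were H2a and H4 genes, such as H2ac12 at 13.55 and 11.01 and H2ac6 at 14.82 and 12.57, whose copies are so alike that their probes may share targets. The measured H2b genes did not share this: they ran from -0.74 to 0.64, most of them above 0.

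The regulators of these genes had medians nearer 0. Of 20 G1 and S phase cyclins, E2F and MuvB genes 6 were 2-fold lower and 14 lay between (median -0.26). Ccne1, the cyclin of S phase entry, was at 9.35 and 7.43, Skp2, which marks Cdkn1b for destruction, at 11.41 and 9.80 and the E2F partner Tfdp1 at 10.12 and 8.94. Foxm1, the activator of G2 and mitotic genes, was at 8.36 on day 3 and not detected on day 6 (6.15), at least 2.74-fold lower on the normalized scale. Such a bound sets the undetected side to the lowest detected level after background correction and need not hold on another scale: the raw signals of Foxm1, background included, were 2.54-fold apart, and of 61 named genes with a bound 37 had a raw fold under it. E2f1 differed by -0.13, Ccnd1, the cyclin that answers to growth factors, by 0.22, and Myc by -0.76. Of 21 inhibitors of cyclin-dependent kinases and quiescence genes 5 were 2-fold higher, none lower and 16 lay between (median 0.63). Txnip, a brake on glucose uptake and growth, was at 13.13 and 15.33, Rgcc at 12.36 and 14.22, and Trp53inp1 differed by 1.34. Cdkn1c (p57) was at 13.65 and 15.37, where its day 6 signal was 66.2% of the highest on the array. Over the 6 arrays Cdkn1c stood at 8.78, 10.12, 13.65, 15.37, 15.69 and 15.40. On this log2 scale the larger share of its day 6 difference from day 0 was present on day 3. On a linear scale it was not: the authors' deposited folds over day 0 were 23.81 on day 3 and 78.86 on day 6. Cdkn1b (p27), counted as higher, was at 7.0, near the lowest level of a detected probe, and 8.0. Its raw signals were 223.9 and 347.3, and by the authors' deposited folds it differed by 0.64. Cdkn1a (p21) differed by 0.09. Of 16 p53 targets 1 was higher, Trp53inp1, and 1 lower, the kinase Plk2 at 10.08 and 8.74 (median 0.03).

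**Figure D3:**
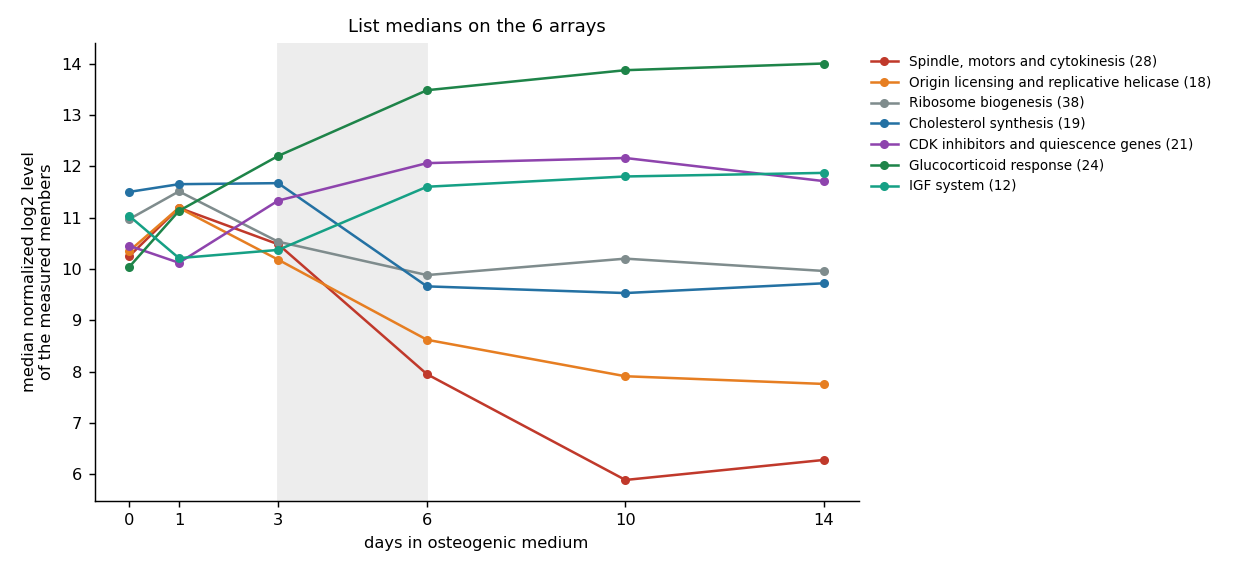
Median normalized log2 level of the measured members of 7 gene lists on each of the 6 arrays, against days in osteogenic medium, with the step shaded and the number of members in brackets. The spindle and origin lists peaked on day 1 and were lower on day 3, and cholesterol synthesis was level up to day 3. The median level of the glucocorticoid list was higher on each later array. From day 10 to day 14 the median difference of its members was -0.1.

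Cholesterol synthesis was lower as a near complete pathway. Of 19 genes 16 were 2-fold lower, none was higher and the median difference was -1.47, while the medians of the steps before were 0.09 and 0.26. The lower set spans the path from the mevalonate enzymes to sterol: Mvd was at 10.15 and 7.73, Fdps, which makes farnesyl diphosphate, at 14.61 and 12.61, Lss, which closes the lanosterol ring, at 11.67 and 9.29 and Cyp51, which demethylates it, at 13.65 and 11.92. Insig1, which holds the sterol sensor in the endoplasmic reticulum and is itself a target of sterol-regulated transcription, was at 9.0 and 7.21. On the 6 arrays Lss was at 11.50, 11.65, 11.67, 9.29, 8.35 and 8.56, level up to day 3 and lower after it. Of 12 fatty acid synthesis genes 5 were lower and 7 between (median -0.86), with the elongase Elovl6 at 11.69 and 9.69, Fasn at 12.96 and 11.60 and the desaturase Scd1 at 13.56 and 12.37. Of the 16 lower cholesterol genes 13 had a promoter window, and 12 of these (92.3%) held CCAAT, 1 CHR letters and 1 E2F letters, beside CCAAT in 39.2% of all measured genes. Windows of the cholesterol genes that were not 2-fold lower were not counted apart.

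Lists of growth and protein supply lay mostly below 0. The ribosome and oxidative phosphorylation lists had few members 2-fold apart, beside 5.98% lower over all genes. The stress response and chaperone lists had larger shares. All 38 ribosome biogenesis genes were below 0 (median -0.62), of which 3 were 2-fold lower: Fbl, the methyltransferase of ribosomal RNA, at 12.77 and 11.51, Nop56 at 10.18 and 9.15 and Ppan at 11.82 and 10.77. Of 53 cytosolic ribosomal proteins 38 were below 0 and 14 above (median -0.14), with Rpl38 at 12.06 and 10.84 and Rps19, not detected on day 6, as the 2 lower ones. Of 69 oxidative phosphorylation subunits 65 were below 0 and 68 within 2-fold (median -0.30), and Cox7a1 was not detected on day 6. On the list of the integrated stress response and amino acid supply 5 of 27 were lower, 2 higher and 20 between (median -0.51). The lower ones serve serine, folate and amino acid supply: Mthfd1l at 10.18 and 8.77, Mthfd2 at 11.55 and 10.47, Psat1 at 13.14 and 11.95, the transporter Slc7a5 at 11.17 and 10.01, and Phgdh, outside the naming rule, at 8.59 and 7.52. The higher ones were Stc2, a secreted glycoprotein, at least 13.8-fold higher on the normalized scale and 8.44-fold in raw signals, and Ddit4, an inhibitor of mTOR signalling that glucocorticoids also induce, at 10.38 and 11.62. Of 15 endoplasmic reticulum chaperone genes 5 were lower (median -0.68), with Hspa5 (BiP) at 11.17 and 10.03. Hyou1 and Manf, also counted as lower, were detected on day 3 only. Their bounds were 1.5-fold and 1.0-fold, and their raw signals were 1.47-fold and 1.49-fold apart.

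Of 20 glycolysis and hypoxia genes 15 were below 0 (median -0.57), of which 3 were 2-fold lower (Aldoc, Vegfa and Pkm), and 1 was 2-fold higher (Slc16a3). Aldoc was detected on day 3 only, at least 1.68-fold lower on the normalized scale (raw signals 1.84-fold). Slc16a3 was detected on day 6 only, at least 1.27-fold higher (raw signals 1.49-fold). Pkm, the last enzyme of glycolysis, was at 14.90 and 13.88. Gapdh differed by -0.69 at 81.0% and 48.9% of the highest signals, and Actb by 0.03. Of 16 fatty acid oxidation genes 14 were within 2-fold (median 0.03), beside 7359 of 8427 over all genes. The 2 higher were Cpt1b, the muscle form of the carnitine transferase, at 7.09 and 8.20, and Pdk4, at 11.24 and 13.82. Pdk4 shuts pyruvate out of the mitochondrial cycle and is induced by glucocorticoids. Proteasome subunits had a median of -0.42, with 28 of 30 within 2-fold, beside 7359 of 8427 over all genes. The exceptions were Psmd11 and Psmc1, and Psmc1 was at 10.83, 10.70, 10.55, 5.23, 10.61 and 5.36 over the 6 arrays. That on-and-off course rests on 1 probe, and the other subunits differed by -1.18 to 0.16.

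By count, the list of genes that answer glucocorticoids had the most 2-fold higher members of all lists. Of 24 measured, 12 were higher, none lower and 12 lay between (median 1.04), beside 6.69% higher over all genes. The complement and IGF lists had larger shares, 11 of 15 and 7 of 12, and higher medians, 1.31 and 1.22. Lcn2, a secreted iron carrier, was at 8.12 and 12.86, the sulfotransferase Sult1a1 at 10.99 and 14.36, and Tsc22d3 (GILZ), a classic target of the receptor, at 9.26 and 11.71. On the 6 arrays Tsc22d3 was at 6.77, 7.93, 9.26, 11.71, 12.37 and 12.01, higher on each array up to day 10. Hsd11b1, which regenerates active glucocorticoid inside the cell, was at 9.70 and 12.02, and the transcription factor Zbtb16 at 7.12 and 9.39. Fkbp5, another known target chosen after its values were seen, was at 12.22 and 13.13, a difference of 0.91. Both days had dexamethasone in the medium, so these values describe time in it and hold no contrast with and without it.

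Secreted proteins of the acute phase and of IGF signalling were also higher. Of 15 complement and acute phase genes 11 were 2-fold higher, 2 lower and 2 between (median 1.31); Lcn2 is on this list too. Apod, a lipid carrier of resting fibroblasts, was at 10.86 and 14.99, where its day 6 signal was 50.8% of the highest, and the copper protein Cp at 7.41 and 10.81. The complement genes C2 and C1s1 were at 11.31 and 13.62 and at 8.58 and 10.41. Saa3, an acute phase protein of inflammation, went the other way, at 10.32 and 8.33, as did Cd55, outside the naming rule, at 8.26 on day 3 and not detected on day 6. Of 12 IGF system genes 7 were higher, none lower and 5 between (median 1.22). Igf2, a growth factor, was at 9.42 and 11.43 and its receptor Igf1r at 9.84 and 11.08, although the other probes of Igf1r differed by 0.21 to 0.36. The binding proteins Igfbp3 and Igfbp2 were at 12.13 and 14.85 and at 6.89 and 9.60, and Pappa, the protease that frees IGF from binding proteins, at 10.24 and 11.76.

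Inflammatory signals were mostly lower. Of 24 chemokines and mediators 12 were 2-fold lower, 1 higher and 11 between (median -0.94). Cxcl5, which draws neutrophils, was at 8.13, 10.73, 10.10, 5.16, 4.99 and 4.99 over the 6 arrays, detected on day 3 and at least 9.13-fold lower on day 6 on the normalized scale (raw signals 11.2-fold). Ccl9 was at 10.27 and 6.91 and Cxcl14 at 10.59 and 8.45. Il6 and Ptgs2, the prostaglandin synthase, were at 8.15 and 7.86 on day 3 and not detected on day 6. The 1 higher gene was Tnfaip3, an inhibitor of NF-κB signalling named after its values were seen, at 8.33 and 9.43. Of 30 interferon response genes 28 were within 2-fold (median -0.20), beside 7359 of 8427 over all genes. Rsad2 was lower at 8.92 and 7.67 and Ifi205 higher at 12.12 and 13.29. Of 20 immediate early genes 5 were lower and none higher (median 0.00), with Egr2 at 12.15 and 10.43 and Egr3 at 11.57 and 9.88.

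Bone genes gave no common direction. Of 9 osteoblast lineage transcription factors 8 were within 2-fold (median 0.19), beside 7359 of 8427 over all genes. Sp7 (osterix), which commits cells to bone, was lower at 9.51 and 7.99. Runx2 and Spp1 were not analysed here. Of 12 osteoblast matrix and mineralisation genes 4 were higher, 3 lower and 5 between (median -0.22). Alpl, the alkaline phosphatase that frees phosphate for mineral, was at 9.58 and 7.07, the phosphate transporter Slc20a1 at 9.31 and 7.60, and Tnfsf11 (RANKL), which drives osteoclast formation, at 8.70 and not detected on day 6. The higher ones were Smpd3, a sphingomyelinase needed for bone mineral in mice, at 8.33 and 11.35, Mgp, an inhibitor of calcification, at 13.78 and 15.62, Omd at 8.88 and 10.29, and Postn, outside the naming rule, at 11.67 and 12.79. The day 6 signal of Mgp was 78.8% of the highest on the array, and Col1a1 differed by -0.48 near the top of the signal range. Sox11, the factor in the title of the study, was at 8.75 and 7.94, a difference of -0.81.

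Fat and cartilage genes were level or higher. Of 17 adipocyte genes 7 were 2-fold higher, none lower and 10 between (median 0.38). Plin4, which coats lipid droplets, was at 9.93 and 12.55, the fatty acid carrier Fabp4 at 8.03 and 10.01, the adipokine Adipoq at 7.49 and 9.36 and the glucocorticoid-induced factor Klf15 at 8.50 and 10.25. Pparg, the master regulator of fat cells, differed by 0.98. Dlk1, a surface protein of preadipocytes that holds back fat cell formation, was at 10.34, 10.81, 10.32, 13.92, 14.00 and 13.92 over the 6 arrays, level up to day 3 and, higher, from day 6 on. Of 5 cartilage genes Comp, a matrix protein, was at 10.52 and 12.56 and Sox5 at 9.69 and 10.78, with the other 3 between.

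Matrix lists had members in both directions. Of 35 glycoproteins and proteoglycans 8 were higher, 5 lower and 22 between (median 0.00). The hyaluronan synthase Has2 was lower at 11.82 and 9.55, and Has1 and the hyaluronan-binding proteoglycan Vcan, at 7.88 and 7.38 on day 3, were not detected on day 6. Higher were Thbs1 at 8.77 and 10.35 and Podn, a small leucine-rich proteoglycan, detected on day 6 only at 7.97. Of 31 collagen genes 27 were within 2-fold (median -0.16), beside 7359 of 8427 over all genes. P3h1, Plod2 and Loxl2, which modify or cross-link collagen, were lower, at 10.33 and 8.72, 9.67 and 8.32, and 11.80 and 10.63. Col18a1, of basement membranes, was higher at 12.26 and 13.51. Of 24 proteases and inhibitors 4 were higher and 4 lower (median -0.09), with Timp4 at least 5.66-fold higher on the normalized scale (raw signals 3.93-fold) and Adam12 lower at 11.01 and 9.16. Of 21 contractile genes 3 were higher, the smooth muscle genes Myh11 (at least 6.11-fold on the normalized scale, 3.89-fold in raw signals), Lmod1 (7.98 and 9.88) and Mylk (14.10 and 15.21), and Tagln2 was lower at 12.33 and 11.01. The day 6 signal of Mylk was 59.5% of the highest on the array.

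Signalling and clock genes held a few large differences within level lists. Of 25 BMP and TGF-beta genes 4 were higher and 3 lower (median 0.29). Tgfbi, a matrix protein induced by TGF-beta, had the largest negative difference of all genes detected on both days, -3.80, with 11.57, 9.48, 11.31, 7.51, 8.04 and 7.09 on the 6 arrays. Its level on day 1 was below those of day 0 and day 3 and above those of day 6 and later. Tgfb3, a ligand, was higher at 9.89 and 11.34, and the ligand Gdf10 lower at 13.22 and 11.52. Of 22 Wnt, Notch and Hedgehog genes 6 were higher and 1 lower (median 0.07). The ligand Wnt2 was at 8.24 and 9.92, and the Wnt inhibitor Dkk2 was at least 2.84-fold higher on the normalized scale (raw signals 2.53-fold). The Notch ligand Jag1 was at 6.97, near the lowest level of a detected probe, and 8.19, with raw signals of 221.7 and 380.4. The Notch target Hes1 was at 10.31 and 11.53. Ptch1, of the Hedgehog pathway, was detected on day 6 only, at least 1.45-fold higher on that scale (raw signals 1.73-fold). Rspo3, which strengthens Wnt signals, was lower at 9.93 and 8.27. Of 12 clock genes Per2 was at 9.29 and 10.67, Cry2 at 8.95 and 10.05 and Bhlhe40 at 11.72 and 9.68, and the other 9 lay between. Lysosome and autophagy genes had 3 higher of 27 (Ctsf, Gabarapl1 and Ctsa) and none lower (median 0.24), and redox genes 5 higher and 1 lower of 33 (median 0.00), with the aldehyde oxidases Aox3 at 8.38 and 10.62 and Aox1 at 9.86 and 11.63.

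**Figure D4:**
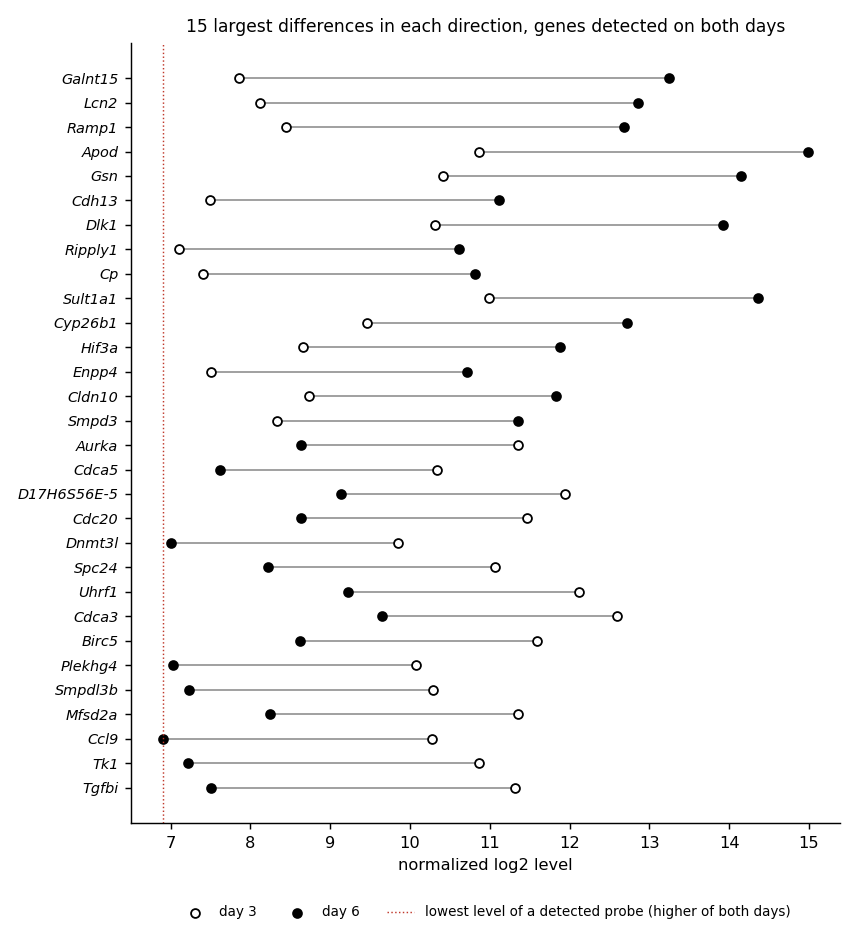
Normalized log2 levels on day 3 (open) and day 6 (filled) of the 15 genes with the largest difference in each direction among those detected on both days, 1 array a day, with a dotted line at the lowest level of a detected probe. Galnt15, at 7.86 and 13.25, has the largest positive difference and Tgfbi, at 11.31 and 7.51, the largest negative one.

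The largest positive difference among genes detected on both days was that of Galnt15, an enzyme that starts O-linked sugar chains, with 5.0, 5.35, 7.86, 13.25, 14.00 and 13.21 on the 6 arrays and a difference of 5.40. Its 3 other probes differed by 1.45 to 5.30. Ramp1, part of the receptor for calcitonin gene-related peptide, was at 8.45 and 12.68, the cadherin Cdh13 at 7.49 and 11.11 and Cyp26b1, which breaks down retinoic acid, at 9.46 and 12.72. The actin-severing protein Gsn differed by 3.73 on 1 probe and 1.10 on the other, and Hif3a by 3.22 and 0.16, so their sizes depend on the probe. The tight junction protein Cldn10, detected on both days, was at 8.74 and 11.83. Among genes detected on day 6 only, Cldn1, of the same family, was at 5.24, 5.12, 6.81, 12.67, 13.19 and 13.19. It was at least 55.2-fold higher on the normalized scale, with raw signals 30.3-fold apart. On the same scale Abca8a was at least 21.0-fold, Rcan2, an inhibitor of calcineurin, at least 17.4-fold, the integrin Itga8 at least 10.5-fold and the chaperone Clu at least 9.76-fold higher. In raw signals these were 11.5-fold for Abca8a, 10.7-fold for Rcan2, 9.21-fold for Itga8 and 6.23-fold for Clu. On day 0 and day 1 Ramp1, Cyp26b1 and Rcan2 were detected, and the other genes of this paragraph were not.

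Outside the cell cycle the lower genes with the largest differences were of mixed kind. Mfsd2a, a transporter of lysophospholipids, was at 11.36 and 8.25, Smpdl3b, a membrane phosphodiesterase, at 10.29 and 7.23 and Plekhg4 at 10.08 and 7.03. Dnmt3l, a cofactor of DNA methyltransferases known from germ cells, was at 10.96, 10.56, 9.85, 7.01, 5.51 and 5.79 on the 6 arrays, lower on each array up to day 10. Ngfr, the low-affinity neurotrophin receptor and a marker of stromal stem cells, was at 9.86, 6.34, 10.17, 6.30, 5.48 and 5.72 and at least 9.58-fold lower in the step on the normalized scale (raw signals 7.06-fold). Its level thus alternated before day 6. The glucose transporter Slc2a6 was at least 7.33-fold lower on that scale, the fatty acid transporter Slc27a6 at least 4.75-fold and Mgarp, a mitochondrial protein, at least 4.57-fold. Their raw signals were 5.06-fold apart for Slc2a6, 3.07-fold for Slc27a6 and 4.32-fold for Mgarp.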

How the data were processed

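RNA of 6 cultures was hybridised to Illumina bead arrays, 1 a day. The table deposited by the authors holds linear intensities by probe and, as named per the file headers, the detection p-value of each. A further deposited table gives a signed fold score of each later array over day 0. How that was scaled, which software read the scanner and whether background was subtracted is not given in the sources used here. Of 46649 entries, 6 without and 30 with a repeated identifier were left out. Columns were tied to days through the deposited series matrix (17785 values an array equal within 1e-05). Intensities were background corrected with nec (limma 3.58.1, R 4.3.3; offset 16) using the detection p-values, quantile normalized over the 6 arrays and put on the log2 scale. Of the probes 13805 had 1 symbol and 3 several; 13788 were found in the RefSeq gene table with 0 symbols changed. A gene took its probe with the highest mean. No probe coordinates are given; promoter windows are from RefSeq GRCm38.p6.

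A gene detected on 1 array has its fold given as at least N on the normalized scale, with the opposite array set to its lowest level of a detected probe. The 52 lists, their members and the naming rule were chosen with earlier results of these data known. Named were the 15 largest differences in each direction detected on both arrays, the 6 largest bounds in each direction, up to 6 members of each list at least 2-fold apart (the 2 largest where none was), 20 fixed genes such as Sox11 and Alpl, and the genes at the detection threshold. Exceptions are marked. Alternatives changed the background correction, its offset, the normalization, the arrays normalized, the detection threshold, the choice of probe and the use of bounds, or took the authors' fold score. Precision is limited by signal over background and by 1 array a day. No bead-level error was computed.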

Additional observations from a re-analysis of the deposited data

How the results depend on the processing

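The counts of 564 higher and 504 lower genes ran from 388 to 618 and from 336 to 526 over 9 alternatives, each within 1.5 times the value reported, and the share of 2-fold calls that were higher ran from 52.3% to 56.7% (52.8% as reported). Of the 226 named genes that were 2-fold apart, all kept their direction under each alternative that could give them a value, and 196 stayed 2-fold apart without background correction, where sizes were smallest. Without it the medians were -1.35 for mitotic kinases, -1.44 for the kinetochore list and -1.50 for the spindle list; the median for mitotic kinases was -1.42 with bounds for genes detected on 1 array and -1.39 in the authors' deposited fold table. Sizes of genes near background or near the highest signal are therefore loosely known. No paired analysis was possible because each day has 1 array.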
